A study of Mus musculus with 28 samples.

Results

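The genes described here are 8 markers of GABAergic interneurons, *Sst*, *Npy*, *Vip*, *Cck*, *Pvalb*, *Calb2*, *Nos1* and *Chodl*, chosen by name out of 21938 annotated protein-coding genes on chromosomes 1 to 19, X and Y. They were read in nuclei of a different kind of neuron, the medium spiny neurons (MSNs) of the mouse striatum. All mice were on the C57BL/6J background, male and female, with an age given as about 8 weeks in one place and as 6 to 12 weeks in another, and carried a *Rosa26* knock-in of Sun1-sfGFP (R26-CAG-LSL-Sun1-sfGFP), from which Cre turns on a green fluorescent nuclear membrane protein. A2a-cre, active in MSNs with the adenosine A2a receptor, was used for A2a nuclei (Sun1-sfGFP;A2a-cre), and *Drd1*-cre, active in MSNs with the dopamine D1 receptor, for D1 nuclei (Sun1-sfGFP;Drd1-cre). Tagged nuclei were pulled down by INTACT and profiled by CUT&RUN (CnR), in which an antibody directs a nuclease to cut out the DNA around a histone post-translational modification (hPTM). The series has 28 samples, and 4 deposited lists pool 8 of them, 2 replicates for each cell type and hPTM. The lists hold 22551 A2a and 20080 D1 peaks of H3K4me3, and 60191 A2a and 45760 D1 islands of H3K27me3. The other 20 samples were not analysed here.

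H3K4me3 is a methyl mark that sits at the start sites of active or poised genes. H3K27me3 is laid down by Polycomb repressive complex 2 over genes that a cell keeps silent, often genes of other lineages, and may spread over many kb. Striatal interneurons are sparse, aspiny GABAergic cells among the MSNs. One class makes somatostatin, neuropeptide Y and nitric oxide, and *Chodl* marks the long-range projecting form of these cells in cortex, while others make parvalbumin or calretinin, and *Vip* and *Cck* mark classes that are better known from cortex and hippocampus.

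A peak or island was assigned to a promoter when it overlapped, by at least 1 bp, the window from 2 kb before to 1 kb after the transcription start site (TSS), taken as the 5′ end of the annotated gene (GENCODE vM21, GRCm38). Peaks were ranked within their own list by −log10 q and islands by their reads, and a percentile is the share of that list at or below the value. Neither fold enrichments nor reads are normalized between lists. The A2a islands hold 22091634 reads over 301 Mb (73.4 reads per kb) and the D1 islands 7878685 reads over 184 Mb (42.8 reads per kb), so A2a read counts are higher in general, and library depth is not known from the lists. Each list is a single pooled sample: there is no spread between mice, no test across mice could be made, and all intervals cover counting error only. For D1 H3K27me3 the labels conflict, with A2a in the source name and D1 in the title and cell type, and D1 was used. The marker genes of the MSNs themselves followed the title, since a D1 island of 45 kb covered *Adora2a*, whose promoter met no A2a island, and the D1 genes *Drd1*, *Pdyn* and *Tac1* lay under A2a islands of 16.8, 39.6 and 61 kb and D1 islands of 1.8, 1 and 2.8 kb.

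The sequences just before the start sites are shown for all members except *Calb2*. All are GRCm38, 5′ to 3′ on the gene's strand. Sequences that end at the base before a RefSeq start come from RefSeq's promoter table. In it 7 of the 8 members were matched, and *Calb2* was not. The sequence of *Nos1* was read from the genome before the internal start of a coding transcript, 60.8 kb into the gene. Capitals mark the motifs that were searched on both strands. The first is the cAMP response element (CRE), TGACGTCA. Its core is the shorter TGACG, which the CRE contains on both strands. The others are the TATA box, searched as TATAAA, then the GC box, searched as GGGCGG, and the CCAAT box, and none of the matches to these overlap. For *Sst* only 30 bases around its CRE are shown.
Sst, chr16:23890874-23890903, minus strand: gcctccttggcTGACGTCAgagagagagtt
Npy, chr6:49822510-49822709, plus strand: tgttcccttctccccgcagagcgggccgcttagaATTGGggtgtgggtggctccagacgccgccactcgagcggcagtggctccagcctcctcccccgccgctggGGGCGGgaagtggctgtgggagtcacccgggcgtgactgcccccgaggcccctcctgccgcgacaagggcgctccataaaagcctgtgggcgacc
Vip, chr10:5639018-5639217, plus strand: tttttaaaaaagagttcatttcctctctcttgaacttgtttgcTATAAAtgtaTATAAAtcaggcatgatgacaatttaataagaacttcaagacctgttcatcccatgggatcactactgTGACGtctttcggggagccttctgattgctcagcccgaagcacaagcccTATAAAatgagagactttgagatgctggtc
Cck, chr9:121495695-121495894, minus strand: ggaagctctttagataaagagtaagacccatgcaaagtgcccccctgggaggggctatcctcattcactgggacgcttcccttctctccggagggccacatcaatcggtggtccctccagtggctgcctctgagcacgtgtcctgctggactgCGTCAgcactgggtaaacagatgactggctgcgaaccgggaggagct
Pvalb upstream start, chr15:78206401-78206600, minus strand: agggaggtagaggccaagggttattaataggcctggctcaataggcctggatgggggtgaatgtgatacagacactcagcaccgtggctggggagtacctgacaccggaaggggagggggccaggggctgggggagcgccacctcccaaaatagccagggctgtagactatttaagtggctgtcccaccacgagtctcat
Pvalb downstream start, chr15:78204238-78204437, minus strand: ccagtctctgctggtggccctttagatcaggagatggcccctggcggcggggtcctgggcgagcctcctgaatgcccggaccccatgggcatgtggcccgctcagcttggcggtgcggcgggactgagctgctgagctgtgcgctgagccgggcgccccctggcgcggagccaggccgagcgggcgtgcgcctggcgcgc
Nos1 internal start, chr5:117841650-117841849, plus strand: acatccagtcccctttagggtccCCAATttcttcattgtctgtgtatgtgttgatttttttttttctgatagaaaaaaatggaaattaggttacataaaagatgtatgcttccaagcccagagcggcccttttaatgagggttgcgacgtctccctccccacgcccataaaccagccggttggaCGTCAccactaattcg
Chodl, chr16:78930748-78930947, plus strand: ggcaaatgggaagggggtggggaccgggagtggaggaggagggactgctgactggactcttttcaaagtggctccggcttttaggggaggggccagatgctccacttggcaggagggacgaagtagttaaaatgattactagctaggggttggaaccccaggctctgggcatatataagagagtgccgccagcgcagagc

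In the 200 bases before the start, the full CRE occurs in 1.47% of the 32851 promoters of the table and TGACG in 15.7%. *Sst* has the full CRE at −48 to −41 from its RefSeq start, which lies 114 bp downstream of the GENCODE start. The CRE is the site through which cAMP and CREB act, and it was first described at this gene. *Vip*, also known as a cAMP-responsive gene, has the core at −79 to −75. The core lies on the other strand at −47 to −43 before *Cck*, at −16 to −12 before the internal start of *Nos1* shown, and at −130 to −126 before the RefSeq start of *Nos1* that is not shown. TATAAA, found in 9.96% of promoters, occurs 3 times before *Vip*, nearest the start at −30 to −25. *Npy* has a GC box (31% of promoters) and a CCAAT on the other strand (29.3%), and the *Nos1* start has a CCAAT. Neither start of *Pvalb* and not that of *Chodl* holds any of these letters in this window. The *Pvalb* starts differ in CpG, with 4 in the 200 bases before the upstream start and 19 before the downstream one (median of all promoters, 5).

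H3K27me3 covered the promoters of 7 of the 8 markers in A2a nuclei (21.7% of all protein-coding genes) and of the same 7 in D1 nuclei (15.3%), the exception being *Nos1*. All 7 were shared between the cell types, against 14.3% of all genes. When the gene body was counted too, all 8 members had an island in A2a (29.2% of all genes) and in D1 (22.1%). H3K4me3 was at 2 member promoters in A2a, *Cck* and *Chodl* (58.2% of all genes), and at 1 in D1, *Cck* (55.7%). These were also the promoters with both marks, 2 in A2a (9.54% of all genes) and 1 in D1 (5.57%). In A2a, 5 members, *Sst*, *Npy*, *Vip*, *Pvalb* and *Calb2*, had H3K27me3 without H3K4me3 (12.1% of all genes), and in D1 these and *Chodl*, 6 in all (9.71%). H3K4me3 without H3K27me3, the state of 48.6% of all genes in A2a and 50.2% in D1, was at 0 members. Since each list pools many nuclei, marks on the same nucleosome or in the same nucleus cannot be told apart from marks in different nuclei.

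**Figure D1:**
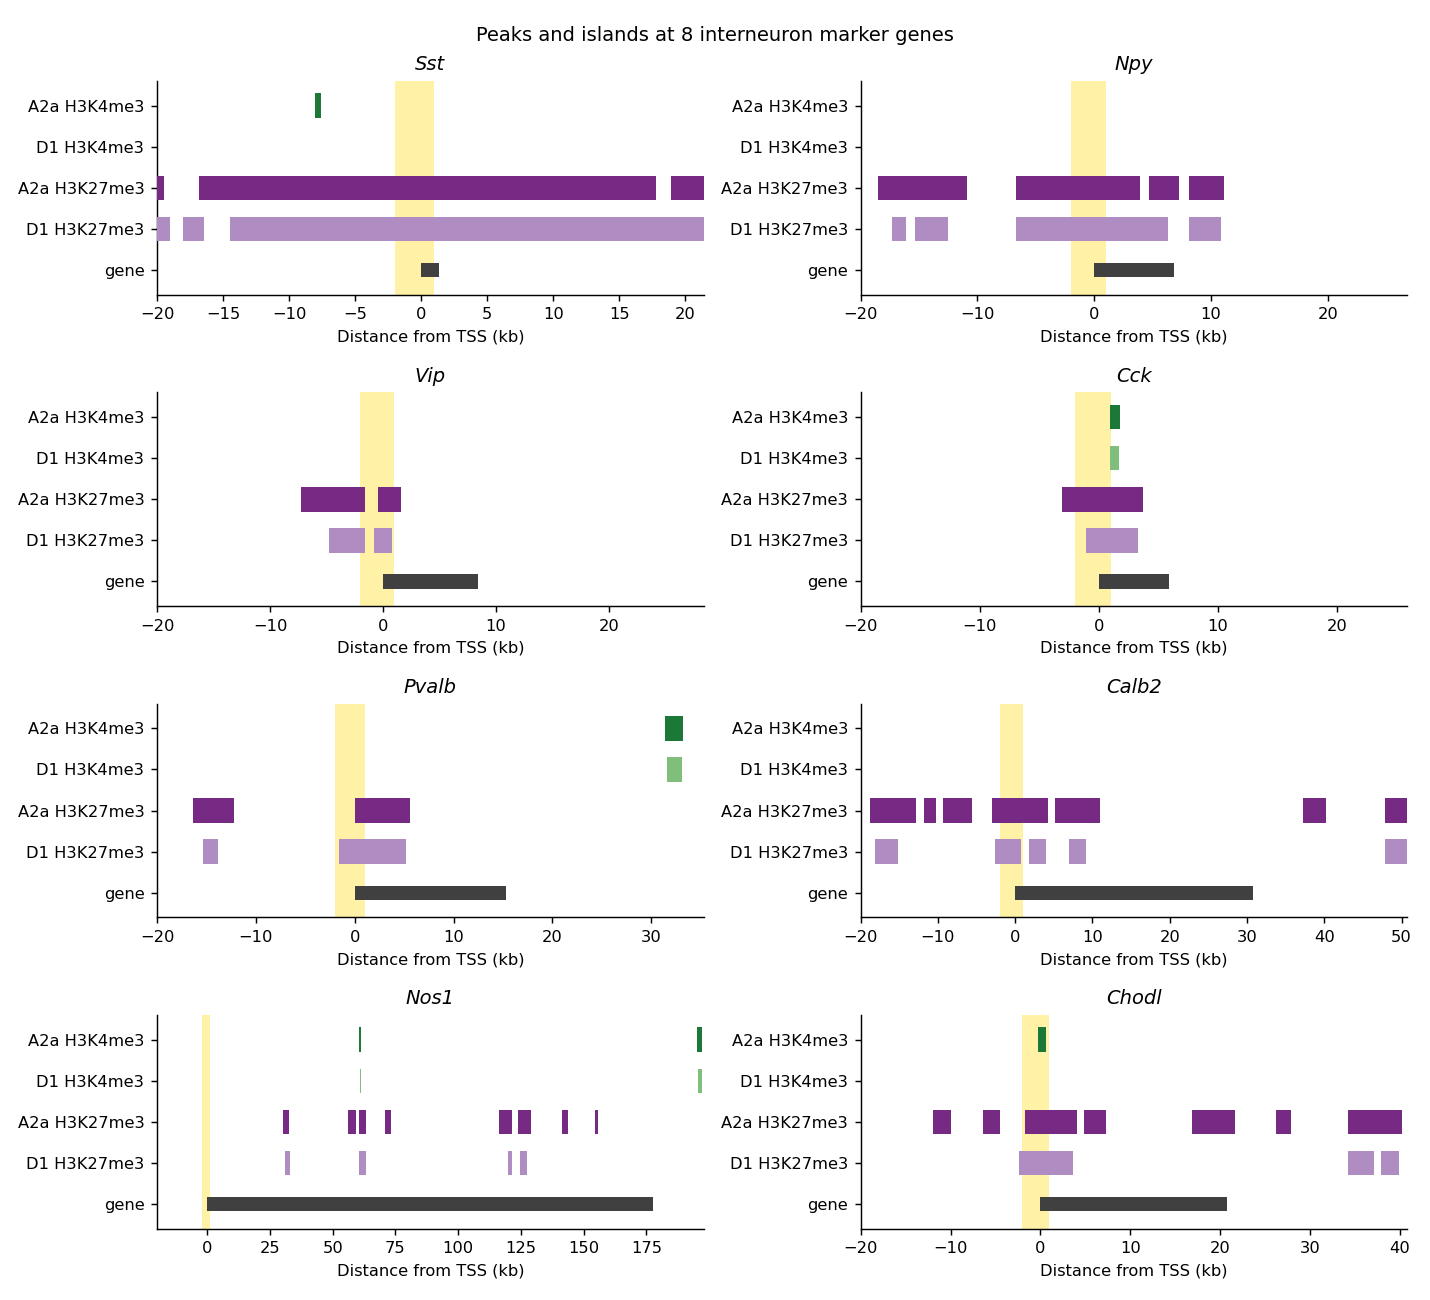
Deposited H3K4me3 peaks (green) and H3K27me3 islands (purple) of A2a (dark) and D1 (light) nuclei around the 8 genes, against distance from the TSS in kb along the gene's strand; grey bars are the genes, the yellow band the promoter window, and each axis runs from 20 kb before the gene to 20 kb past its end. Islands lie over 7 of the 8 promoters in both cell types, and within the genes or their promoters H3K4me3 is seen at *Cck*, at *Chodl* in A2a alone and inside *Nos1*.

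Among the peptide genes, *Sst* (chr16:23889573-23890958, minus strand), which encodes the inhibitory peptide somatostatin, had the most H3K27me3. Its 1.39 kb lay whole within an A2a island of 34.6 kb with 4907 reads (95% Poisson interval, 4770 to 5050), at the 99.6th percentile of the A2a list. The D1 island was 43.2 kb long with 3034 reads (2930 to 3140), at the 99.8th percentile. The islands reached from −16.8 kb (A2a) and −14.4 kb (D1) to 17.8 and 28.8 kb from the TSS, and no other annotated gene lay under either. No H3K4me3 peak met the promoter. In A2a, one peak of 464 bp lay with its summit 7.9 kb upstream, inside the island, with a fold enrichment of 5.28 at the 21.1st percentile of the list and no annotated start within 1 kb, and the nearest D1 peak was 89.5 kb from the promoter.

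*Npy* (chr6:49822710-49829507, plus strand), which encodes neuropeptide Y, had the next highest read counts. Its A2a island of 10.6 kb held 1206 reads (1140 to 1280; 96.1st percentile) and its D1 island of 13 kb held 685 reads (635 to 738; 97.5th percentile). Both began 6.71 kb before the TSS, and they ended 3.89 kb (A2a) and 6.29 kb (D1) after it. In A2a a further island of 2.6 kb with 203 reads covered the end of the gene. The nearest H3K4me3 peak was 137 kb from the promoter in both cell types.

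*Vip* (chr10:5639218-5647617, plus strand), which encodes vasoactive intestinal peptide, was the most weakly covered of the 7. In both cell types 2 islands met its promoter window and left a gap before the TSS. In A2a the upstream island ran from −7.22 to −1.62 kb with 335 reads (300 to 373; 72.7th percentile), and the island over the TSS ran from −0.417 to 1.58 kb with 146 reads (123 to 172; 24.6th percentile). In D1 the upstream island ran from −4.82 to −1.62 kb with 101 reads (82.3 to 123; 48.4th percentile), and the one over the TSS from −0.817 to 0.782 kb with 71 reads (55.5 to 89.6; 19.4th percentile). By reads, the island over the TSS thus ranked in the lower part of its list in both cell types, unlike the islands at the other peptide genes. These islands are short, at 2 kb (A2a) and 1.6 kb (D1). By reads per kb, at 73 and 44.4, they were at the 77.8th and 79.2nd percentiles. No H3K4me3 peak came closer to the promoter than 86.2 kb (A2a) or 86.4 kb (D1).

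*Cck* (chr9:121489824-121495694, minus strand), which encodes cholecystokinin and is also used by many cortical excitatory neurons, was the one member with both marks in both cell types. Its A2a island of 6.8 kb held 704 reads (653 to 758; 90.9th percentile) and its D1 island of 4.4 kb held 186 reads (160 to 215; 79.5th percentile). The A2a H3K4me3 peak ran from 0.899 to 1.77 kb after the TSS, at 6.83-fold enrichment and a −log10 q of 21.6 (33.3rd percentile). The D1 peak ran from 0.903 to 1.69 kb, with a fold enrichment of 6.73 and a −log10 q of 28.4 (39.9th percentile). The peaks met the promoter window by only 102 bp (A2a) and 98 bp (D1), and their summits were 1.32 and 1.34 kb from the gene's 5′ end. Annotated *Cck* transcripts start at 0.834, 0.854 and 1.18 kb, next to or inside these peaks. With a minimum overlap of 200 bp the *Cck* promoter was no longer counted as carrying H3K4me3 in either cell type.

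The calcium-binding protein genes had H3K27me3 and no H3K4me3 at the promoter. *Pvalb* (chr15:78191114-78206400, minus strand), which encodes parvalbumin, had an A2a island of 5.6 kb with 648 reads (599 to 700; 89.7th percentile) and a D1 island of 6.8 kb with 322 reads (288 to 359; 91.4th percentile). The A2a island began at the upstream start and ran into the gene, covering 33.4% of the promoter window, while the D1 island began 1.6 kb before it and covered 86.7%. Both covered the CpG-rich downstream start at 2.16 kb whose sequence is shown above. *Calb2* (chr8:110137502-110168210, minus strand), which encodes calretinin, had an A2a island of 7.2 kb with 784 reads (730 to 841; 92.3rd percentile) and a D1 island of 3.4 kb with 217 reads (189 to 248; 83.9th percentile). Further islands in the body of *Calb2* held 453 reads over 5.8 kb in A2a, and 90 and 75 reads over 2.2 kb each in D1. The nearest H3K4me3 peaks were 30.4 kb (A2a) and 30.6 kb (D1) from the *Pvalb* promoter and 46.9 and 47.1 kb from that of *Calb2*.

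*Nos1* (chr5:117781032-117958840, plus strand), which encodes neuronal nitric oxide synthase, spans 178 kb and differed from the other members. Neither mark met the promoter window at its 5′ end, and the nearest island was 29.4 kb (A2a) and 30.2 kb (D1) away. This was the state of 29.7% of all protein-coding genes in A2a and 34.5% in D1. Inside the gene there were 8 A2a islands of 88 to 313 reads and 4 D1 islands of 62 to 115 reads. One island in each cell type lay at the internal start at 60.8 kb, with 250 reads over 3 kb in A2a (220 to 283) and 106 reads over 2.8 kb in D1 (86.8 to 128). The same start had the only H3K4me3 peaks of the gene, an A2a peak of 817 bp with a fold enrichment of 8.02 (35.4th percentile) and a D1 peak of 412 bp with a fold enrichment of 6.21 (28.1st percentile), with summits 56 and 70 bp from the start. When the starts of all annotated transcripts were used, all 8 members carried H3K27me3 at a start in both cell types (24.2% of all protein-coding genes in A2a and 17.4% in D1 by the same rule), and H3K4me3 was at 3 members in A2a (62% of all genes) and 2 in D1 (59.4%). For *Nos1* this rested on the marks near 60.8 kb. Its RefSeq start, 85807 bp into the gene, met neither mark. The islands before that start ended at 73.4 kb (A2a) and 63.2 kb (D1), and the next began at 116 and 120 kb.

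*Chodl* (chr16:78930948-78951733, plus strand), which encodes the membrane protein chondrolectin, was the one member whose H3K4me3 call differed between the cell types. Its A2a peak of 958 bp reached from −0.322 to 0.635 kb, with its summit 179 bp after the TSS, a fold enrichment of 8.21 and a −log10 q of 24.8 (35.9th percentile). No D1 peak came closer to the promoter than 352 kb. A promoter peak in A2a alone was found at 2.59% of all protein-coding genes. H3K27me3 was present in both, as an A2a island of 5.8 kb with 824 reads (769 to 882; 92.9th percentile) and a D1 island of 6 kb with 423 reads (384 to 465; 94.4th percentile). The D1 H3K4me3 list has fewer peaks than the A2a list. Taking equal numbers of peaks left the *Chodl* call in A2a alone. That step drops the weakest A2a peaks and leaves the D1 list unchanged, so it could not show whether list size matters here. Library depth is not known, so absence from the D1 list is not absence of the mark. The H3K4me3 peaks described here at *Sst*, *Cck*, *Nos1* and *Chodl* all lay wholly (100% of its length) within H3K27me3 islands of both cell types.

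**Figure D2:**
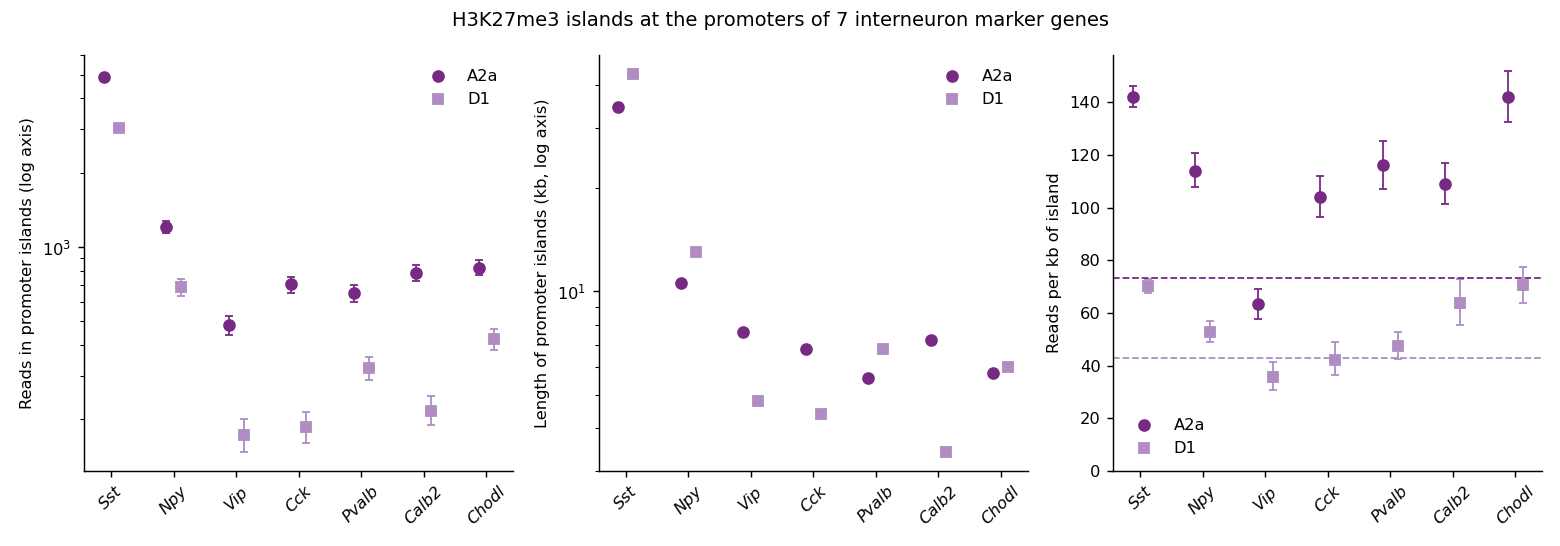
Reads, length in kb and reads per kb of the H3K27me3 islands that meet the promoters of 7 genes, in A2a (circles) and D1 (squares); where 2 islands met a promoter (*Vip*) they were summed, bars are 95% Poisson intervals of the reads, and dashed lines are the means over each list, 73.4 and 42.8 reads per kb. *Sst* stands above the others in reads and length, and *Vip* is below the list mean in both cell types.

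The density of reads was then compared, since it depends less on island length than the read count does. In A2a it was highest at *Sst* and *Chodl*, with 142 reads per kb each, and was 116 at *Pvalb*, 114 at *Npy*, 109 at *Calb2* and 104 at *Cck*, all above the list mean of 73.4. *Vip*, with its islands summed, had 63.3. In D1 the order began likewise with *Chodl* at 70.5 and *Sst* at 70.2, followed by *Calb2* at 63.8, *Npy* at 52.7, *Pvalb* at 47.4, *Cck* at 42.3 and *Vip* at 35.8, around a list mean of 42.8. These means weight each island by its length. By rank of reads per kb, the *Cck* island in D1 was at the 72.8th percentile of its list. The *Vip* islands over the TSS were at the 77.8th (A2a) and 79.2nd (D1), and its upstream islands at the 39.6th and 17th. In A2a the counting intervals of neighbours in this order overlapped except between *Sst* (138 to 146) and *Pvalb* (107 to 125) and between *Cck* (96 to 111) and *Vip* (57.8 to 69.2). In D1 the intervals of all neighbours overlapped.

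Density was higher in A2a than in D1 at all 7 promoters, as it was over the lists as a whole. Over the 3132 protein-coding genes with a promoter island in both lists, the median ratio of A2a to D1 reads per kb was 1.88 (5th to 95th percentile, 1.35 to 2.53), and each member was read against that ratio. *Cck* (2.45; 95% counting interval, 2.08 to 2.89) and *Pvalb* (2.44; 2.13 to 2.8) were at the 93.9th and 93.7th percentiles of these genes. *Npy* (2.16; 1.96 to 2.37), *Sst* (2.02; 1.93 to 2.11) and *Chodl* (2.02; 1.79 to 2.27) were at the 80.7th, 67.3rd and 67th percentiles. *Vip* (1.77; 1.48 to 2.11) and *Calb2* (1.71; 1.47 to 1.99) lay below the median, at the 35.6th and 29.5th percentiles. Thus 5 of the 7 ratios were above the median and 2 below, and all 7 lay between the 5th and 95th percentiles. The islands were called separately in each list, so a ratio also depends on where each island ends. At *Npy*, *Pvalb*, *Sst* and *Chodl* the D1 island was the longer one. No ratio over a common stretch or over merged islands is at hand. The intervals of *Vip*, *Calb2* and *Chodl* contain the median ratio, and no spread between mice is known against which the other 4 could be read.

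**Figure D3:**
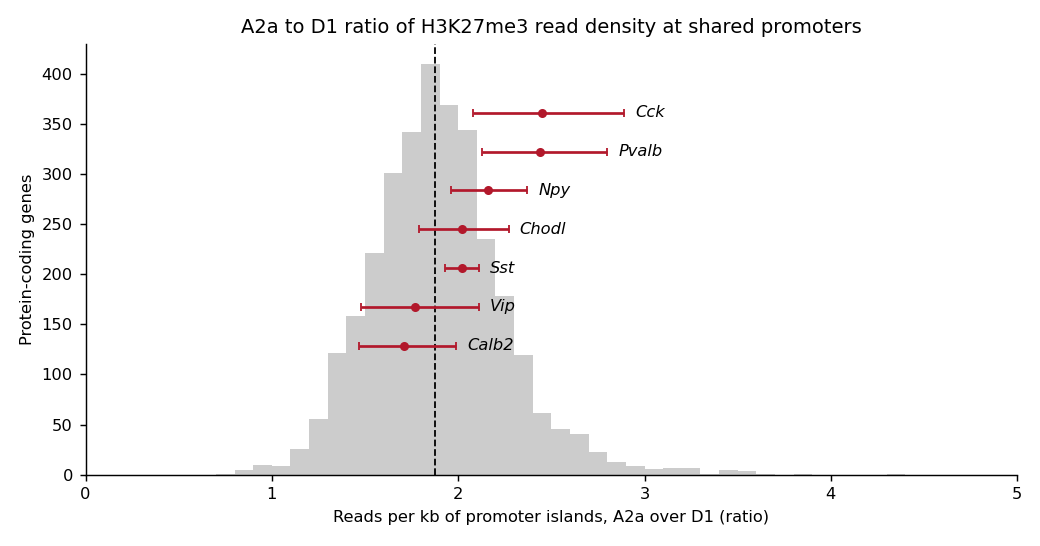
Histogram of the A2a to D1 ratio of H3K27me3 reads per kb over the 3132 protein-coding genes with a promoter island in both lists, with the median (dashed, 1.88) and 7 interneuron markers (red, with 95% counting intervals; their heights only separate them). The ratios of the markers run from 1.71 (*Calb2*) to 2.45 (*Cck*), inside the spread of the other genes.

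Island length went the other way at several members. The A2a islands at shared promoters were longer than the D1 islands, with a median length ratio of 1.4, but at 4 of the 7 members, *Sst*, *Npy*, *Pvalb* and *Chodl*, the D1 island was longer (17.1% of the 3132 genes). The A2a to D1 length ratios were 0.801, 0.815, 0.824 and 0.967 at these genes, and 1.58, 1.55 and 2.12 at *Vip*, *Cck* and *Calb2*. This rested on where the caller broke the islands. At *Sst*, a separate A2a island of 10 kb with 699 reads lay after the promoter island, in a stretch that the single D1 island largely covers, and at *Npy* the D1 island likewise ran on over part of the second A2a island. With islands within 5 kb of each other merged, *Pvalb* was the 1 member left with a longer D1 island. The share of all genes with merged islands is not at hand, so this count cannot be read against it.

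Coverage of the whole genes, in windows of 200 bp over promoter and gene body, was 26.3% for the 8 members in A2a (374 of 1423 windows) and 16.7% in D1 (237 of 1423), against 9.77% and 6.1% for all protein-coding genes. *Nos1* holds 900 of these windows, and without it the shares were 47.8% and 36.7%. *Sst* was covered in full in both cell types and *Npy* to 91.1% (A2a) and 93.3% (D1). *Cck* (72.5% and 55%), *Chodl* (53% and 25.2%), *Calb2* (37% and 22.4%), *Vip* (22.6% and 18.9%) and *Nos1* (13.8% and 5%) were covered further in A2a, and *Pvalb* (32.2% and 39.1%) further in D1.

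The CpG ratio around the TSS, which the choice of genes did not use, lay in the lower and middle part of the range of all genes. The ratio of observed to expected CpG within 500 bp of the TSS was 0.626 at *Npy*, 0.577 at *Sst*, 0.526 at *Calb2*, 0.398 at *Chodl*, 0.287 at *Vip*, 0.26 at *Cck*, 0.224 at *Nos1* and 0.157 at *Pvalb*, with a median of 0.552 over all protein-coding genes. Thus *Npy* and *Sst* were above the median and the other 6 below it. The value of *Pvalb* is that of its upstream start. In the 200 bases before each of its starts the ratio was 0.247 (upstream) and 0.7 (downstream). GC percent within 500 bp of the TSS was spread more widely. It ran from 39.2% at *Vip* (8.2nd percentile of all genes) to 62.5% at *Npy* (80.2nd) and 62.6% at *Nos1* (80.5th), with a median of 54.7%. The H3K4me3 peaks inside *Cck* and *Nos1* were richer in CpG than the 5′ ends of these genes. The *Cck* peaks had ratios of 0.716 (A2a) and 0.749 (D1), and the peaks inside *Nos1* had 0.676 and 0.756, each above the median of its list (0.564 and 0.606), whereas the *Chodl* peak had 0.412. The A2a peak upstream of *Sst* had 0.544, below the 0.577 at the *Sst* TSS and below its list's median.

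**Figure D4:**
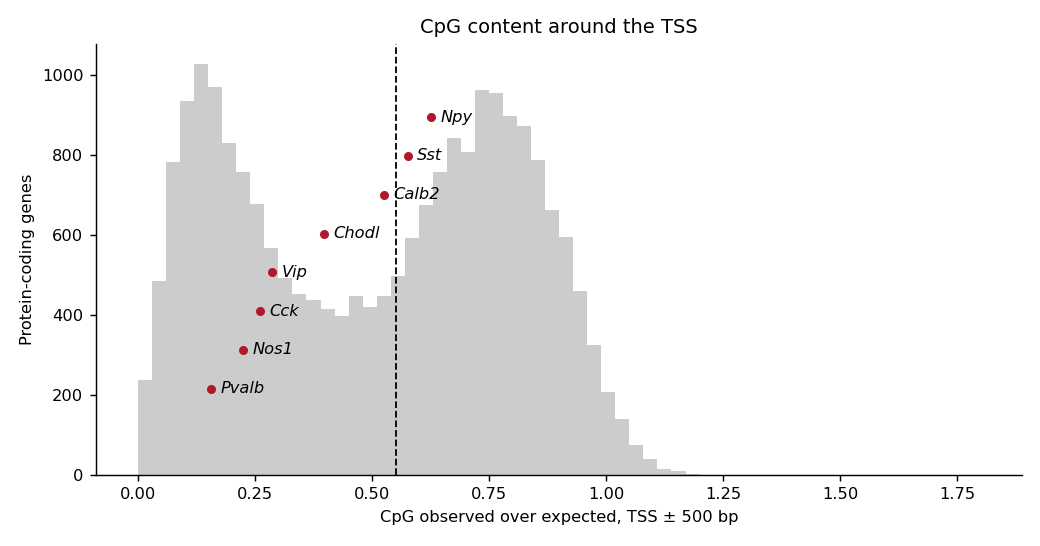
Histogram of the observed over expected CpG ratio within 500 bp of the TSS of all protein-coding genes, with the median (dashed, 0.552) and the 8 interneuron markers (red; their heights only separate them). The markers run from 0.157 at the upstream start of *Pvalb* to 0.626 at *Npy*.

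The receptors for the members' products were read next, since MSNs receive these transmitters. Of 15 such genes, 12 had a promoter H3K4me3 peak in A2a (58.2% of all protein-coding genes) and 11 in D1 (55.7%). An H3K27me3 island was at 8 in A2a (21.7%) and 5 in D1 (15.3%). The 3 subunit genes of the nitric oxide receptor in this list, *Gucy1a1*, *Gucy1a2* and *Gucy1b1*, had peaks at or above the 79.7th percentile and no promoter island in either cell type. *Npy1r*, a neuropeptide Y receptor, likewise had peaks at the 88.2nd (A2a) and 69.2nd (D1) percentiles and no island. *Sstr4*, a somatostatin receptor, had peaks in both but an island in A2a alone, of 19.8 kb and 2486 reads (98.8th percentile), while the nearest D1 island was 9.66 kb away. *Cckar*, a cholecystokinin receptor, had islands of 11.2 kb (A2a) and 17.4 kb (D1) and no peak.

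Of 16 transcription factors known from interneurons, 15 had H3K27me3 at the promoter in A2a (21.7% of all genes) and 13 in D1 (15.3%). H3K4me3 was at 12 in A2a (58.2%) and 10 in D1 (55.7%). *Lhx6*, the factor required by *Sst* and *Pvalb* interneurons, had an A2a island of 29 kb with 5557 reads and a D1 island of 38.2 kb with 2805 reads, both at the 99.7th percentile, with no peak. *Nkx2-1*, which acts before *Lhx6* in these cells, had islands of 105 kb (A2a) and 49.8 kb (D1) and no peak. *Etv1* was the factor with H3K4me3 and no promoter island in both. *Dlx1* and *Dlx2* are neighbours under one island and are not independent. Both marks were at 11 of the 16 factors in A2a (9.54% of all genes) and 7 in D1 (5.57%).

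Of 17 other interneuron markers, 12 had an island in each cell type (21.7% of all genes in A2a and 15.3% in D1). A peak was at 10 in A2a (58.2%) and 9 in D1 (55.7%), close to the shares of all genes. Both marks were at 8 in A2a (9.54%) and 7 in D1 (5.57%). *Chat*, the acetylcholine-making enzyme of striatal cholinergic interneurons, had islands of 17.4 kb with 2235 reads (A2a) and 13.6 kb with 876 reads (D1) and no peak. *Pthlh*, a marker of a striatal *Pvalb*-related class, had islands of 11 kb (A2a) and 11.4 kb (D1) together with peaks of low rank (25.4th and 2.41st percentiles). *Calb1*, which MSNs express as well, had peaks at the 91.4th and 82.3rd percentiles and no island. *Th* and *Cort* had neither mark at the promoter in both cell types. The promoter of *Th* was set at the 5′ end of its annotated gene. Islands covered 22.3% (A2a) and 5.94% (D1) of the promoter and body of *Th*, and 0% of *Cort* in both.

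Genes of other cells were read the same way. The shares of all genes are 21.7% (A2a) and 15.3% (D1) for a promoter island, and 58.2% and 55.7% for a peak. Of 9 cortical excitatory neuron markers all 9 had a promoter island in both cell types, and 4 (A2a) and 5 (D1) had a peak. Of 12 genes that MSNs of both types express, 11 had a peak in each, and 3 had an island in A2a (*Gnal*, *Gad2* and *Slc32a1*) and 0 in D1. Of 10 markers of glia and other cells, 3 had an island in A2a and 1 in D1, near the shares of all genes, and 2 and 1 had a peak. These counts are descriptions of lists of different size, and differences between the lists were not tested.

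**Figure D5:**
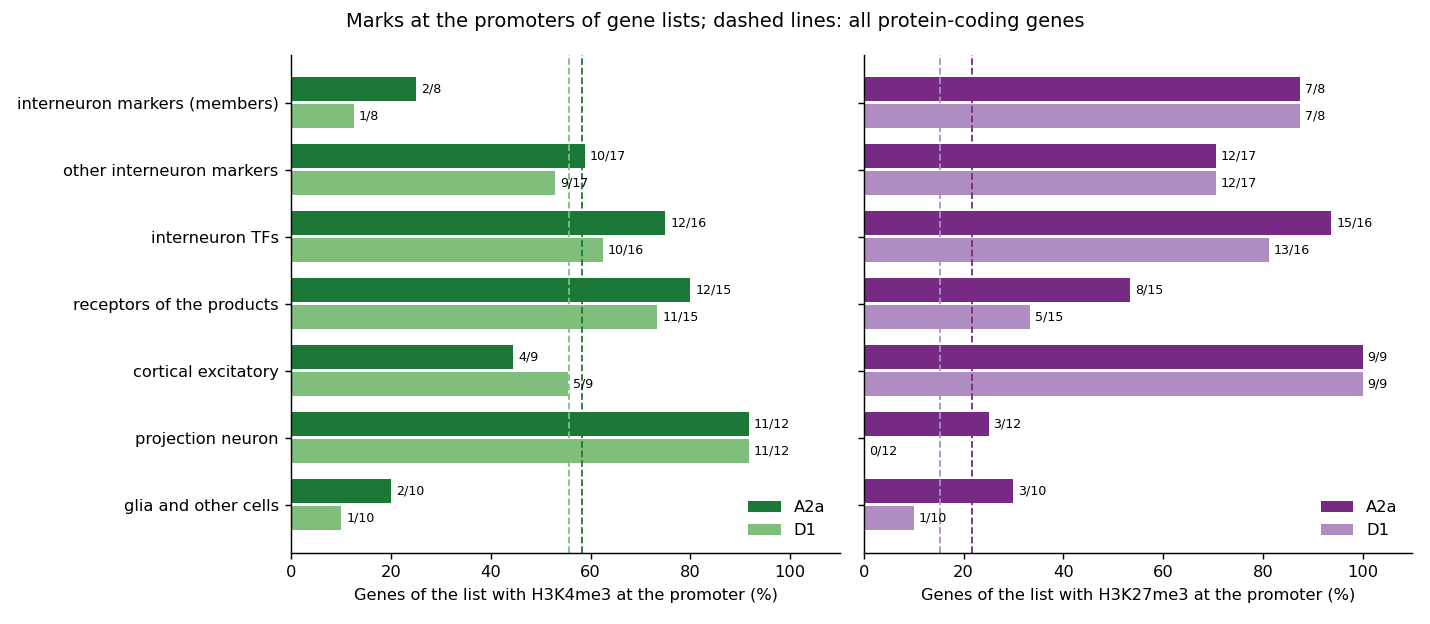
Percent of the genes of each list with an H3K4me3 peak (left) or H3K27me3 island (right) at the promoter in A2a (dark) and D1 (light), with the number of genes at each bar; dashed lines are all protein-coding genes (58.2% and 55.7%, 21.7% and 15.3%). The 8 members stand at 2 and 1 genes with H3K4me3 and at 7 and 7 with H3K27me3.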

How the data were processed

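Reads were mapped by the authors to mm10 with bowtie2 (version 2.1.0), filtered for a mapping quality of at least 20, freed of duplicates with Picard (version 2.23.4) and limited to inserts of 150 to 500 bp. With the Abcam antibody, the authors called H3K4me3 peaks on pooled replicates in MACS2 (version 2.2.7.1), keeping q-values up to 0.01. The deposited values used are a fold enrichment, which is a ratio to the local background, and a −log10 q-value. With the Active Motif antibody, the authors called H3K27me3 islands in SICER (version 2.0; 200 bp windows, 600 bp gaps) against a control that the methods do not name, and the deposited value is a raw count of reads per island. Whether both mates of a pair were counted is not given in the sources used here.

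Overlaps, percentiles and intervals were computed here in Python (version 3.11.15) with scipy (version 1.17.1), and the overlap code was tested on simulated data. Reads and fold enrichments were not rescaled. The study's reporting summary calls the replicates technical and its methods call them biological, so the spread they would give is not known to be that between mice. The members, the other gene lists and the tests were chosen with earlier results of these data known. The genes named are the 8 members, examples from the lists and, for each member with a promoter mark, the gene most like it. Alternatives were a minimum overlap, other promoter windows and starts, stricter peaks and islands, merged islands and equal list sizes.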

Additional observations from a re-analysis of the deposited data

How the results depend on the processing

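Of 67 alternative values for 11 results, 53 stayed the same within the limits set and 14 moved. Some values could not move, since taking equal numbers leaves the shorter D1 lists unchanged. Some counts that changed were still within the limits, such as 3 members in place of 2 with H3K4me3 in A2a. The tally is therefore not a measure of how firm the results are. The count of members with H3K27me3 at the promoter or gene body was 8 under each alternative run, and that at the promoter was 7 in both cell types except with any transcript's start, which gave 8 by adding *Nos1*. A minimum overlap of 200 bp left 1 member with H3K4me3 and 1 with both marks in A2a, and 0 and 0 in D1, since the *Cck* peaks meet the window by less. Shares of all genes by the 200 bp rule are not at hand, so these counts cannot be read against all genes. Counting any transcript's start gave 2 members with H3K4me3 and 2 with both marks in D1, by adding *Nos1*. The share of member windows in islands was 29% (A2a) and 19.7% (D1) with islands within 5 kb merged, 28.8% and 19.3% with the promoter widened to 5 kb on each side, and 23.4% in A2a with equal numbers of islands. Alternatives chosen after seeing the data gave 47.8% and 36.7% without *Nos1*, and 1 member in place of 4 with a longer D1 island once islands were merged. For merged islands no share of all genes is at hand. No paired analysis was possible because each list pools its replicates, and for the same reason no replicate could be left out. Calls near the list floors depend on depths that the lists do not give.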

Other observations

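For each of the 7 members with a mark at the promoter, the autosomal protein-coding gene with the smallest distance over 4 percentiles (H3K4me3 by −log10 q and H3K27me3 by reads, in A2a and D1, set to 0 where the promoter has none) was looked up, as a description over 4 lists. *Sst* was closest to *Sox14* (distance 0.0823), a transcription factor gene at the 99.7th percentile of H3K27me3 in both cell types, and *Npy* to *Cfc1* (0.258). *Pvalb* was closest to *Esm1* (0.204), *Calb2* to *Slc6a13* (0.867), *Vip* to *Krtap17-1* (1.52) and *Chodl* to *Slc25a21* (1.55), which also had an A2a peak (35.2nd percentile) and no D1 peak. *Cck* had no close match, its nearest gene being *Ifit2* at a distance of 8.6.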
